A study of Mus musculus with 8 samples.

Results

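The facilitative glucose transporters are membrane proteins of the Slc2a (GLUT) family that carry sugars down their concentration gradient, without using energy. The 10 genes described here are the rows of the deposited tables with the symbols Slc2a1, Slc2a3, Slc2a4, Slc2a5, Slc2a6, Slc2a8, Slc2a9, Slc2a10, Slc2a12 and Slc2a13, out of 17983 rows. Of the family's other symbols in the table, Slc2a2 had at most 9 counts in any library and Slc2a7 had 1 count in 1 library, and neither was tested. The 4 ketogenic libraries are from brains of male db/db mice on a ketogenic diet, whose fat replaces nearly all carbohydrate. The 4 control libraries are from male db/db mice given a normal diet. Per the series description, feeding started when the mice were 9 weeks old and whole brains were collected at 6 months. All mice in both groups carry the db mutation of the leptin receptor, which causes obesity and type 2 diabetes, so the comparison is of diets within diabetic animals, and no lean or non-diabetic group enters it. The labels do not say whether each library came from a separate mouse, so the p-values measure the spread between these libraries.

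Glucose reaches neurons through a chain of these carriers. GLUT1, the product of Slc2a1, carries glucose across the endothelium of the blood-brain barrier and into astrocytes, and GLUT3, the product of Slc2a3, takes it into neurons. GLUT4 (Slc2a4) is the insulin-responsive transporter of muscle and fat, GLUT5 (Slc2a5) carries fructose and marks microglia in brain, and GLUT8 (Slc2a8) is held mainly on membranes inside the cell. The product of Slc2a13, called HMIT, is set apart from the others because it couples myo-inositol to protons.

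The promoters of Slc2a1, the leading member that rose, and Slc2a13, an abundant member with no detected change, are shown side by side. Each runs from 250 bases before the RefSeq gene start to 50 bases after it on build GRCm38.p6, read 5′ to 3′ on the strand of the gene. Capitals mark every match to GGGCGG (the GC box bound by Sp1 factors), ACGTG (the core of hypoxia response elements), CACGTG (the E box, which contains the hypoxia core) or TATAAA (the TATA box), on either strand. The Slc2a1 promoter is at chr4:119108495-119108794, plus strand, and the Slc2a13 promoter at chr15:91573212-91573511, minus strand.
Slc2a1: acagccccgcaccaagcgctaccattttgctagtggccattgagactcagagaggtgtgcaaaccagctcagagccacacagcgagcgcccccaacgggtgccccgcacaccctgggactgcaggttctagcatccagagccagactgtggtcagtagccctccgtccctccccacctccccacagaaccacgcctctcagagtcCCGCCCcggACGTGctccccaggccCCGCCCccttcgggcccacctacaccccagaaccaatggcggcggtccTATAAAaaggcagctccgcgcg
Slc2a13: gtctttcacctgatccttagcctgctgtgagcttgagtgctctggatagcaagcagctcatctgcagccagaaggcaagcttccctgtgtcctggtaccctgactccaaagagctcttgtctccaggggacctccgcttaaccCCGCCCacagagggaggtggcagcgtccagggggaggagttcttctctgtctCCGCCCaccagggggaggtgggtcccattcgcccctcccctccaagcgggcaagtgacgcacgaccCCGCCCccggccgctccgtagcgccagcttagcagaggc
The Slc2a1 promoter held 2 GC boxes, which start 45 and 20 bases before the gene start, 1 hypoxia core that starts 36 bases before it, and 1 TATA box after the gene start, at base 279 of the 300. The Slc2a13 promoter held 3 GC boxes, of which 1 lies after the gene start, and no match to the other motifs. GC content was 65.3% in the Slc2a1 promoter and 63.7% in the Slc2a13 promoter, with a median of 52.7% over all promoters. Promoter sequences were matched for 8 members, all but Slc2a3 and Slc2a4. A GC box was found in 5 of the 8, a hypoxia core in 2 (Slc2a1 and Slc2a10), a TATA box in 1 and an E box in 0. Among all 32851 promoters of this length the shares were 35.7%, 19.6%, 13.6% and 7.15% in the same order. A match describes the letters and is not a measured binding site.

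Levels between members were compared per length, in FPKM, the deposited fragment counts scaled to gene length and library total. The leading transcript was Slc2a1, at 52.6 ± 4.96 FPKM in ketogenic and 40.6 ± 4.16 FPKM in control libraries (SD, n = 4 each). Slc2a13 stood at 26.1 ± 1.13 FPKM in ketogenic and 26.1 ± 1.62 FPKM in control libraries. Slc2a3 stood at 27.9 ± 0.676 FPKM in ketogenic and 22.4 ± 2.47 FPKM in control libraries. These 3 genes made up between 85.6% and 87.4% of the summed FPKM of the 10 members in every library. Then came Slc2a8 and Slc2a6, at 5.56 and 5.06 FPKM over the 8 libraries, and Slc2a5 at 2.28 FPKM. Slc2a12, Slc2a4, Slc2a10 and Slc2a9 were the lowest, at 0.946, 0.695, 0.401 and 0.241 FPKM.

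**Figure D1:**
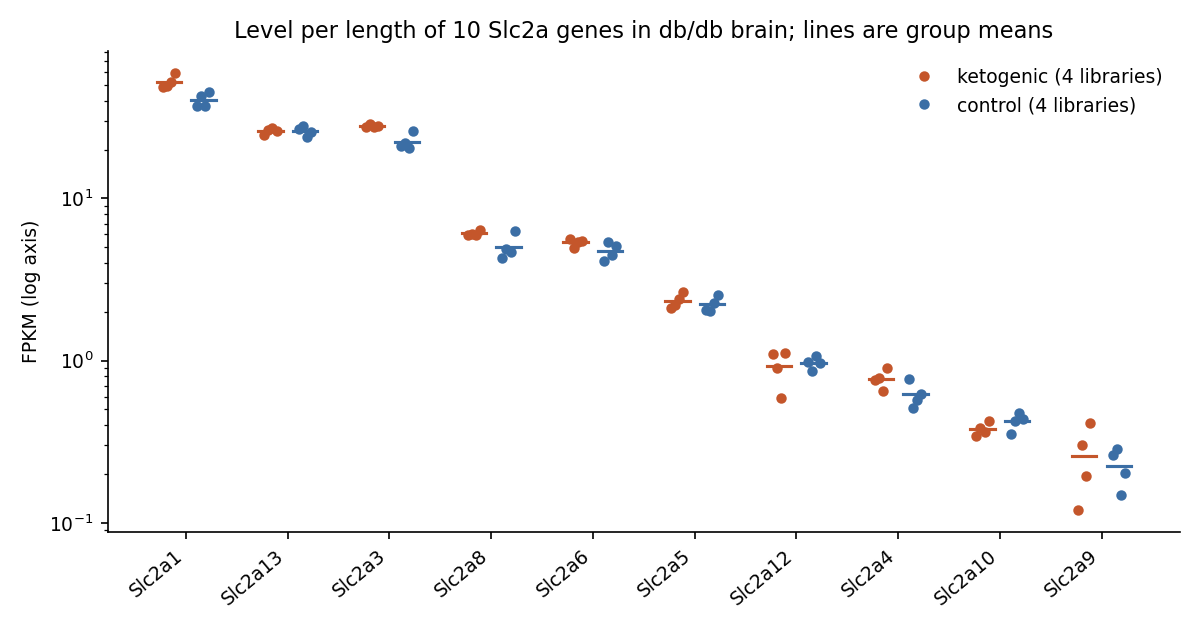
FPKM of the 10 members on a log axis, in ketogenic and control libraries, with 1 point per library and a line at each group mean. Slc2a1 lies above all other members in every library, and Slc2a3 lies above Slc2a13 in the 4 ketogenic libraries but in 1 of the 4 control libraries.

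The order of neighbouring members was fixed at some steps and not at others. Slc2a1 exceeded Slc2a13 in all 8 libraries, with no overlap in either group. Slc2a3 spanned 27.4 to 28.8 FPKM and Slc2a13 24.6 to 27.3 FPKM in ketogenic libraries, so that Slc2a3 was the higher in all 4. In control libraries Slc2a3 spanned 20.6 to 26.0 FPKM and Slc2a13 24.0 to 27.9 FPKM, ranges that overlap, and Slc2a13 was the higher in 3 of 4. Slc2a8 and Slc2a6 were apart in ketogenic libraries and overlapped in control libraries. Slc2a12 and Slc2a4, and Slc2a10 and Slc2a9, overlapped in ketogenic libraries and were apart in control libraries. Compared within each library, however, Slc2a10 was above Slc2a9 in all 8. The summed FPKM of the 10 members ran from 117 to 131 in ketogenic libraries and from 95.5 to 113 in control libraries. Slc2a1 took 41.2% to 45.5% of that sum in ketogenic libraries, against 38.0% to 40.1% in control libraries. Slc2a13 took 20.0% to 22.3% in ketogenic libraries, against 22.7% to 27.3% in control libraries.

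Of the 10 members, Slc2a1 and Slc2a3 rose in ketogenic brains, 0 fell and 8 did not pass. All 10 passed the filter on low counts. The test was edgeR's quasi-likelihood test over 14895 genes, with Benjamini-Hochberg adjustment and a threshold of 0.05 on the adjusted p. The background among all genes tested was 3.30% called higher, 3.22% called lower and 6.52% called in either direction. At an unadjusted p under 0.05, 3 members were higher and 0 lower, where 12.1% of all genes were higher and 12.5% lower. The DESeq2 Wald test called 2 members higher and 0 lower, beside 6.44% and 6.34% of the 13448 genes to which it gave an adjusted p. The median log2 change was 0.17 over the members and -0.0029 over all genes, and 7 of 10 members had a positive change. Values by library are given below in CPM, counts scaled to library size with edgeR's TMM factors, which can be compared between libraries for the same gene. Total counts ran from 34450860 to 40233361 per library. Ketogenic replicate 3 stood apart on the first principal component of all genes, at -34.4, with the other ketogenic libraries between -11.2 and -2.9 and the control libraries between 5.94 and 22.7. Without it the same 2 members were higher, Slc2a1 by 0.36 (edgeR adjusted p = 0.0207) and Slc2a3 by 0.31 (edgeR adjusted p = 0.0225) on the log2 scale.

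Slc2a1, on chromosome 4 (GRCm38, 119108711 to 119137983, plus strand), had 129.6, 129, 143 and 155 CPM in ketogenic replicates 1 to 4. It had 99.9, 113, 98.8 and 119 CPM in control replicates 1 to 4. The lowest ketogenic library was above the highest control library. Such a separation was found for 2 of the 10 members, both with ketogenic higher; among all genes tested it was found in 7.22% with ketogenic higher, 6.51% with ketogenic lower and 13.7% in all. Ketogenic libraries averaged 139 CPM and control libraries 108 CPM. On the log2 scale Slc2a1 rose by 0.37 ± 0.07 (SE; edgeR's quasi-likelihood test, adjusted p = 0.013), which is 1.29-fold with a 95% interval of 1.16 to 1.44. In whole brain, more RNA per cell and more cells of a type that expresses the gene cannot be told apart. Within the bounds of Slc2a1 the GENCODE annotation has 2 antisense genes and a microRNA gene, and the use of strand in the counting is not given in the sources used here.

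Slc2a3, on chromosome 6 (122727809 to 122801640, minus strand), had 161, 166, 165 and 161 CPM in the ketogenic libraries. It had 125, 128, 122 and 151 CPM in the control libraries. The ketogenic values lay close together, and control replicate 4 stood nearer to them than to the other control values, though the groups did not overlap. Slc2a3 rose by 0.31 ± 0.06 on the log2 scale (SE; edgeR adjusted p = 0.0157), a fold of 1.24 with a 95% interval of 1.13 to 1.36. A processed pseudogene lies within the bounds of Slc2a3. The changes of Slc2a1 and Slc2a3 were close in size. The log2 ratio of Slc2a3 over Slc2a1 was 0.24 ± 0.14 in ketogenic and 0.29 ± 0.08 in control libraries (SD, n = 4 each), with a difference of -0.05 (exact two-sided permutation p = 0.657, adjusted p = 0.821 over 5 ratios).

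**Figure D2:**
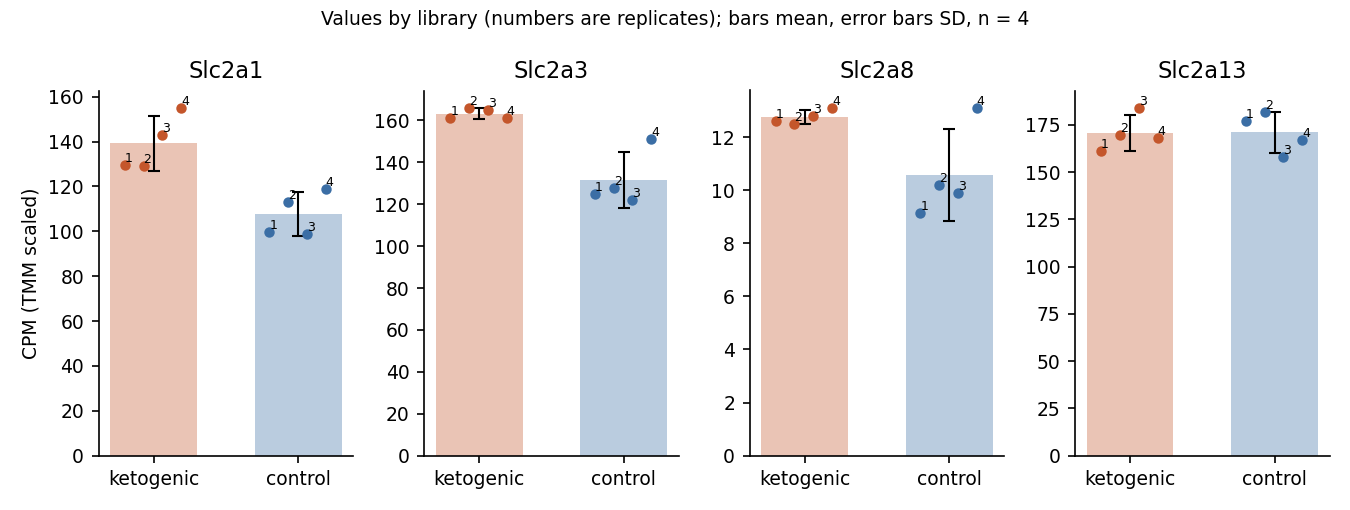
CPM of Slc2a1, Slc2a3, Slc2a8 and Slc2a13 in each library, with ketogenic at the left of each panel; bars are means, error bars SD over 4 libraries, and small numbers are replicates. Slc2a1 and Slc2a3 do not overlap between the groups, Slc2a8 overlaps through control replicate 4, and Slc2a13 has the same mean in both groups.

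Both calls were lost when certain single libraries were dropped. Leaving out control replicate 1 ended the Slc2a1 call (log2 change 0.33, adjusted p = 0.0612). The Slc2a3 call ended on dropping control replicate 1 (0.29, adjusted p = 0.0658), control replicate 2 (0.30, adjusted p = 0.0557) or ketogenic replicate 2 (0.30, adjusted p = 0.0527). Calls over all genes fell in these fits as well, from 971 to 146, 205 and 196 in that order, so the loss was not particular to these members. The unadjusted edgeR p rose from 0.000113 to 0.000727 for Slc2a1, and from 0.000166 to at most 0.00105 for Slc2a3. The cause of the lost calls was not tested. With limma on log2(FPKM + 1) and no filter the changes were still 0.37 for Slc2a1 (adjusted p = 0.0738) and 0.31 for Slc2a3 (adjusted p = 0.0697). Leaving out both ketogenic replicates 3 and 4 gave 0.27 for Slc2a1 (adjusted p = 0.113) and 0.32 for Slc2a3 (adjusted p = 0.0757).

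**Figure D3:**
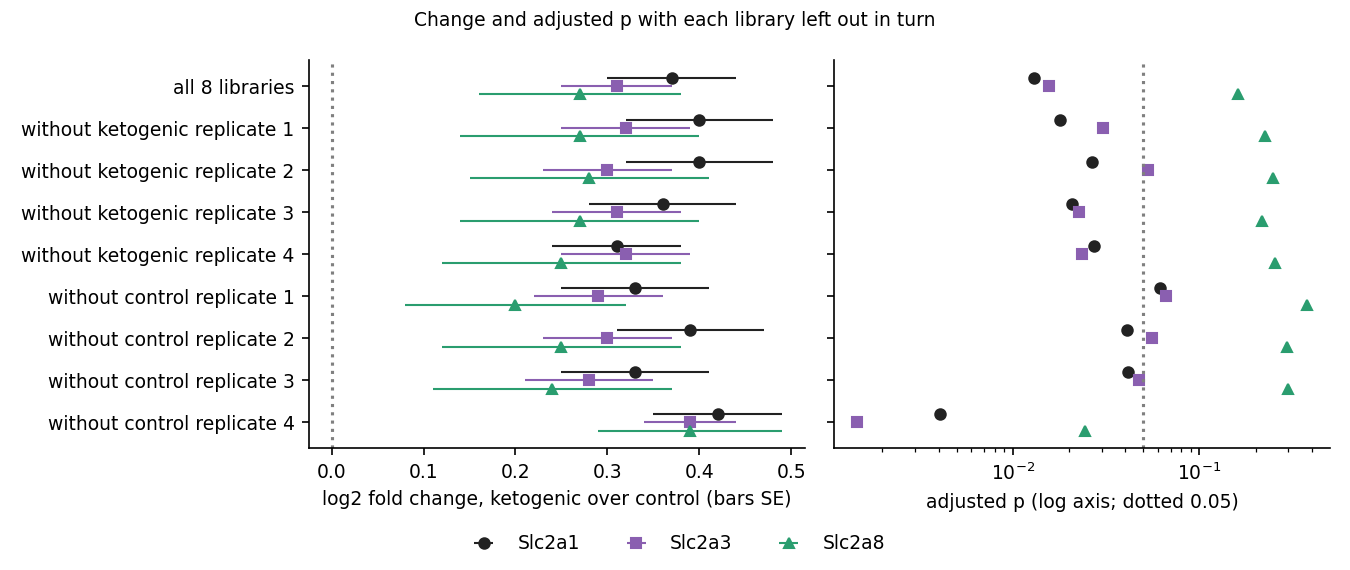
Log2 fold change with its SE (left) and adjusted p on a log axis (right) for Slc2a1, Slc2a3 and Slc2a8 with all 8 libraries and with each left out in turn. Every change stays positive, between 0.20 and 0.42, while the adjusted p crosses 0.05 for Slc2a1 without control replicate 1, for Slc2a3 without 3 of the libraries and for Slc2a8 without control replicate 4.

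Slc2a8, on chromosome 2 (32972990 to 32982083, minus strand), had 12.6, 12.5, 12.8 and 13.1 CPM in ketogenic and 9.15, 10.2, 9.88 and 13.1 CPM in control replicates 1 to 4. Control replicate 4 lay among the ketogenic values and the other 3 control libraries lay below all of them. The log2 change was 0.27 ± 0.11 (SE, edgeR adjusted p = 0.161), a fold of 1.20 with a 95% interval of 1.02 to 1.42, and it did not pass. Without control replicate 4 it was 0.39 (adjusted p = 0.0243), in a setting that called 1900 genes in all, against 971 with all libraries. Control replicate 4 was the highest of its group for 4 of the 10 members and the lowest for 0. Ketogenic replicate 4 was the highest of its own group for 6 members and the lowest for 1. Slc2a6, on the same chromosome (27021363 to 27027998, minus strand), encodes a transporter of membranes inside macrophages. It had 12.1, 10.4, 11.8 and 11.4 CPM in ketogenic and 8.97, 11.4, 9.72 and 10.7 CPM in control libraries, which overlap (log2 change 0.16 ± 0.11, adjusted p = 0.388). The interval of its fold, 0.95 to 1.31, includes the changes of Slc2a1 and Slc2a3.

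The insulin-linked members had low levels and wide intervals. Slc2a4, on chromosome 11 (69942539 to 69948188, minus strand), had 2.38, 2.40, 2.08 and 2.74 CPM in ketogenic and 2.44, 1.59, 1.79 and 1.92 CPM in control libraries. All 4 ketogenic values were above 3 of the 4 control values, and control replicate 1 lay among the ketogenic ones. Its log2 change was 0.31 ± 0.23, as large as that of Slc2a3, but the 95% interval of the fold was 0.88 to 1.74 and it did not pass (edgeR adjusted p = 0.444). Slc2a12, on chromosome 10 (22645011 to 22704285, plus strand), encodes a transporter found with GLUT4 in muscle and fat. It had 9.47, 7.61, 5.14 and 9.34 CPM in ketogenic and 8.56, 7.32, 9.10 and 8.14 CPM in control libraries. Ketogenic replicate 3 was the lowest of the 8, and the sign of the change followed it: the log2 change was -0.07 ± 0.17 (adjusted p = 0.843) with all libraries and 0.09 without that library. Slc2a12 overlaps Tbpl1 on the opposite strand.

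Slc2a5, on chromosome 4 (150119283 to 150144169, plus strand), had 5.67, 5.80, 6.61 and 6.95 CPM in ketogenic and 5.62, 5.42, 6.10 and 6.78 CPM in control libraries. The ranges nearly coincide, and the fold was 1.04 with a 95% interval of 0.85 to 1.28 (edgeR adjusted p = 0.824). The urate transporter gene Slc2a9, on chromosome 5 (38349273 to 38503143, minus strand), ranged from 0.518 to 1.74 CPM in ketogenic and from 0.644 to 1.22 CPM in control libraries. Slc2a10, on chromosome 2 (165503787 to 165519917, plus strand), whose loss causes arterial tortuosity in humans, ranged from 1.19 to 1.44 CPM in ketogenic and from 1.24 to 1.65 CPM in control libraries. At these levels only large changes could be detected, since the 95% intervals of the fold were 0.63 to 2.02 for Slc2a9 and 0.59 to 1.35 for Slc2a10.

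Slc2a13, on chromosome 15 (91267696 to 91573261, minus strand), had 161, 169.7, 184 and 168 CPM in ketogenic and 177, 182, 158 and 167 CPM in control libraries. The ranges of the groups nearly coincide. Its log2 change was -0.003 ± 0.06 (SE, edgeR adjusted p = 0.983), and the 95% interval of the fold, 0.92 to 1.09, was the narrowest of the 10 and lay below the folds of Slc2a1 and Slc2a3. 2 processed pseudogenes and an rRNA gene, all on the same strand, lie within its bounds. The log2 ratio of Slc2a1 over Slc2a13, a comparison chosen after the values were seen, was -0.30 ± 0.12 in ketogenic and -0.67 ± 0.14 in control libraries (SD, n = 4 each). The groups did not overlap, with a difference of 0.37 (exact two-sided permutation p = 0.0286, the smallest possible, adjusted p = 0.05 over 7 ratios, not under the threshold). The ratio of Slc2a3 over Slc2a13, chosen in the same way, differed by 0.32 (exact permutation p = 0.0571, adjusted p = 0.08).

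**Figure D4:**
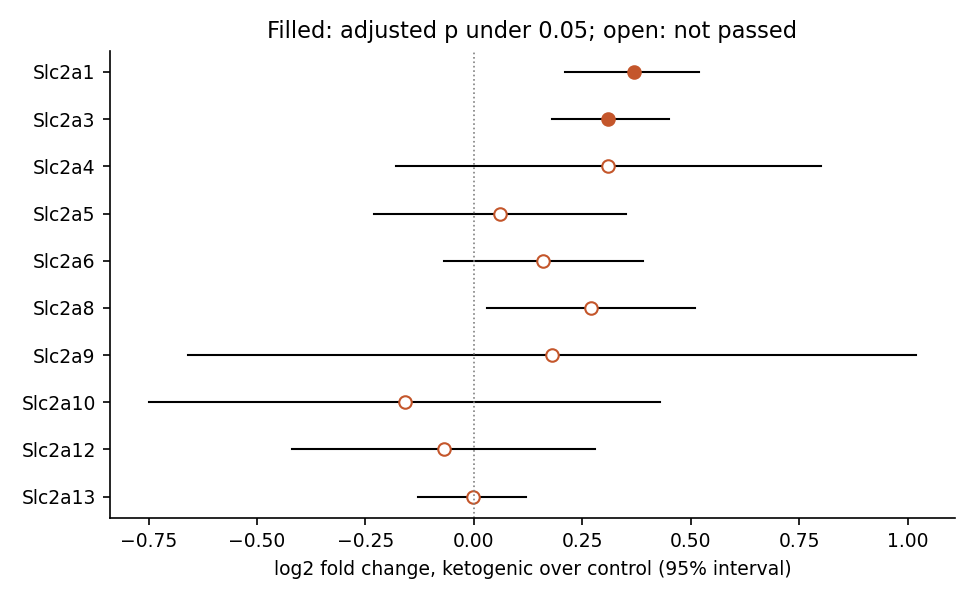
Log2 fold change of each member, ketogenic over control, with its 95% interval from the edgeR fit; filled points passed an adjusted p of 0.05 and open points did not. Slc2a1 at 0.37 and Slc2a3 at 0.31 passed, Slc2a13 lies near 0 with the narrowest interval, and Slc2a9 and Slc2a10 have wide intervals.

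Neuron, astrocyte, oligodendrocyte and the other marker lists were all detected, with no marker at 0 in any library. Of 12 endothelial markers 0 passed edgeR's test in either direction, while 2 were higher at an unadjusted p under 0.05 and DESeq2 called 1 higher. These 2, named after their values were seen, were the lipid carrier gene Mfsd2a (29.8 ± 4.64 CPM in ketogenic and 21.8 ± 4.70 CPM in control libraries, SD, n = 4 each; log2 change 0.45, edgeR adjusted p = 0.0613, DESeq2 adjusted p = 0.0187) and the tight junction gene Cldn5 (14.8 ± 1.47 CPM in ketogenic and 12.6 ± 0.791 CPM in control libraries; log2 change 0.23, edgeR adjusted p = 0.155). The groups overlapped for Mfsd2a and not for Cldn5. Whether these markers had a part in the Slc2a1 change was not tested. Over all 12 markers the log2 changes ran from -0.22 to 0.45 with a median of 0.05, and 7 were positive. Pecam1, Cdh5, Flt1, Tek and Erg had negative changes, of -0.07, -0.10, -0.13, -0.22 and -0.08. The summed level of the 12 was 299 to 342 CPM in ketogenic and 284 to 335 CPM in control libraries. The log2 ratio of Slc2a1 over the mean of these markers was 2.73, 2.63, 2.74 and 2.81 in ketogenic and 2.28, 2.41, 2.44 and 2.49 in control replicates 1 to 4. Slc2a1 was therefore higher relative to endothelial markers in every ketogenic library than in any control library, by 0.32 (exact two-sided permutation p = 0.0286, the smallest possible, adjusted p = 0.0476 over 5 ratios). Adjusted over 7 ratios, as for Slc2a1 over Slc2a13, the same exact p gives 0.05, which is not under the threshold. That holds too for the ratios below with this exact p. With the median of the endothelial list in place of its mean the endothelial difference was 0.28 (exact permutation p = 0.0286, adjusted p = 0.0714) and did not pass. The exact p was unchanged, and the adjusted p rose because fewer of the 5 ratios then had the smallest possible p. Of 8 astrocyte markers 4 fell (the water channel Aqp4, Gfap, Aldh1l1 and the connexin Gja1) and 0 rose. At an unadjusted p under 0.05, 4 were lower and 1 higher. The higher one, named after its values were seen, was the connexin gene Gjb6 (log2 change 0.20, edgeR adjusted p = 0.107). The summed level of the 8 astrocyte markers was 4635 to 5236 CPM in ketogenic and 4744 to 5574 CPM in control libraries, which overlap. Their mean log2 CPM, which enters the ratio, was 8.03 ± 0.04 in ketogenic and 8.19 ± 0.08 in control libraries (SD, n = 4 each), lower by a narrow margin in every ketogenic library. The ratio of Slc2a1 over astrocyte markers was higher by 0.53 in ketogenic libraries (the same exact p = 0.0286 and adjusted p = 0.0476), a difference that includes the lower markers. With the list's median it was 0.67 (exact permutation p = 0.0286, again unchanged, adjusted p = 0.0714). Aqp4 alone had 89.6 ± 9.22 CPM in ketogenic and 130.0 ± 4.77 CPM in control libraries (SD, n = 4 each).

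Of 9 neuron markers 1 fell, Syn1, and 0 rose, with summed levels of 8401 to 9804 CPM in ketogenic and 9146 to 10406 CPM in control libraries. At an unadjusted p under 0.05, 2 were lower and 1 higher. The higher one, named after its values were seen, was Tubb3 (log2 change 0.14, edgeR adjusted p = 0.12), whose groups did not overlap. Slc2a3 over neuron markers was -2.15, -2.01, -2.20 and -2.09 in ketogenic and -2.65, -2.54, -2.61 and -2.26 in control replicates 1 to 4 on the log2 scale. The groups did not overlap, and the difference was 0.40 (exact two-sided permutation p = 0.0286, the smallest possible, adjusted p = 0.0476). That difference includes slightly lower markers, whose mean log2 CPM was 9.47 ± 0.08 in ketogenic and 9.55 ± 0.05 in control libraries (SD), with overlap. With the list's median it was 0.32 (exact permutation p = 0.0571, adjusted p = 0.0952) and did not pass. Of 7 microglia markers 1 rose, Tmem119, and 0 fell, with summed levels of 352 to 436 CPM in ketogenic and 348 to 387 CPM in control libraries. At an unadjusted p under 0.05, 2 were higher and 1 lower. The lower one, named after its values were seen, was P2ry12 (log2 change -0.26, edgeR adjusted p = 0.146). Slc2a5 over microglia markers was -2.96 ± 0.11 in ketogenic and -2.97 ± 0.18 in control libraries (SD, n = 4 each; difference 0.01, exact permutation p = 0.857, adjusted p = 0.857).

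**Figure D5:**
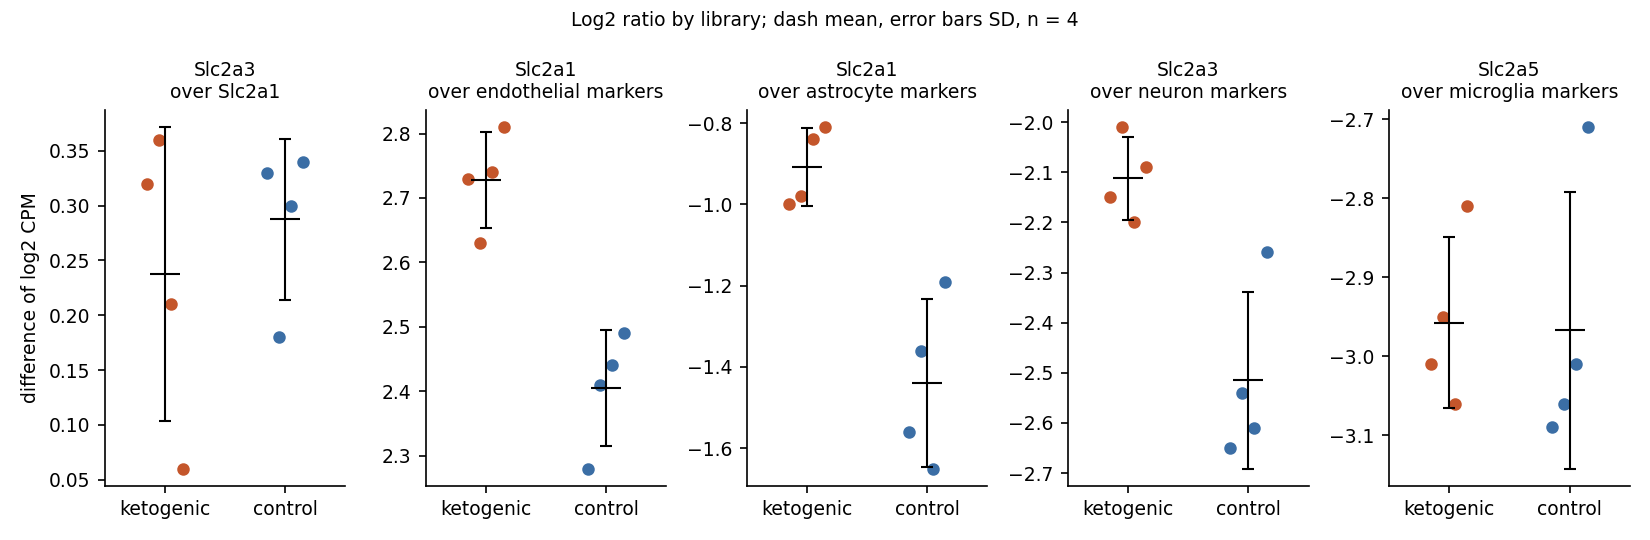
Log2 ratio of a member over another member or over the mean log2 CPM of a marker list, with 1 point per library, a dash at the mean and error bars of SD over 4 libraries. Slc2a1 over endothelial and astrocyte markers and Slc2a3 over neuron markers do not overlap between diets, while Slc2a3 over Slc2a1 and Slc2a5 over microglia markers do.

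Of 6 erythroid markers, which are red cell genes, 4 rose (Hba-a1, Hbb-bs, Hbb-bt and Alas2) and 0 fell. Their summed level was 69.6, 87.0, 103 and 118 CPM in ketogenic and 40.4, 29.0, 15.8 and 52.6 CPM in control replicates 1 to 4, with no overlap. Control replicate 4 was the highest control library for Slc2a1, Slc2a3 and this sum, and ketogenic replicate 4 the highest of all 8 for Slc2a1 and this sum. Control replicate 1, however, had a higher sum than control replicate 2 but less Slc2a1 (99.9 against 113 CPM). Slc2a3 had 161, 166, 165 and 161 CPM in ketogenic replicates 1 to 4, a span too narrow to show whether it followed the sum. The part of red cell RNA in these changes was not tested. Of 7 pericyte markers 1 fell, Rgs5, and 0 rose, with sums of 122 to 142 CPM in ketogenic and 137 to 178 CPM in control libraries. Among oligodendrocyte and choroid plexus markers, 7 each, 0 passed edgeR's test or DESeq2 (at an unadjusted p under 0.05, 0 for oligodendrocytes and 2 for choroid plexus), with sums of 4921 to 6502 CPM and 1073 to 1379 CPM in ketogenic libraries, against 5271 to 5579 CPM and 598 to 1152 CPM in control libraries.

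Of 34 other listed genes of glucose entry 24 were tested, 2 rose and 0 fell, with a median log2 change of 0.02. The 2 that rose are 8.33% of those tested, beside 3.30% called higher among all genes. Among other sugar carriers, 6 of 13 were tested and 1 rose, Slc45a4, of the proton-coupled sugar carrier family, with 58.1, 57.1, 60.4 and 56.1 CPM in ketogenic and 41.1, 45.0, 47.2 and 49.3 CPM in control libraries. The groups did not overlap (fold 1.27, edgeR adjusted p = 0.0116). Its relative Slc45a1, a brain glucose carrier, had 51.5 ± 2.82 CPM in ketogenic and 44.4 ± 1.64 CPM in control libraries (SD, n = 4 each), also without overlap, and did not pass (adjusted p = 0.0514). The myo-inositol carrier gene Slc5a3, named after its values were seen because its substrate is that of HMIT, had 32.2, 34.8, 38.1 and 34.6 CPM in ketogenic and 32.5, 30.5, 31.8 and 50.6 CPM in control libraries. Control replicate 4 lay far above the rest and set the sign of the change, which was -0.06 ± 0.13 on the log2 scale (edgeR adjusted p = 0.82) with it and 0.15 (adjusted p = 0.218) without it.

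Hexokinases trap glucose by phosphorylation once it has entered. Of 7 such genes and relatives 6 were tested and 0 passed in edgeR's test (0 also at an unadjusted p under 0.05, and 0 with the DESeq2 Wald test). The inducible hexokinase gene Hk2 differed by 0.26 ± 0.19 on the log2 scale (adjusted p = 0.437). Of 12 genes that move GLUT proteins to or from the cell surface 1 rose, Tbc1d1, a Rab regulator that restrains GLUT4 vesicles in muscle. It had 30.3, 29.6, 28.2 and 29.4 CPM in ketogenic and 22.2, 25.0, 20.6 and 27.5 CPM in control libraries, without overlap (fold 1.23, adjusted p = 0.0488). That call was lost without any single library other than control replicate 4, with adjusted p of up to 0.157. Txnip, an arrestin-like protein that promotes GLUT1 removal from the membrane, had 55.0 ± 7.66 CPM in ketogenic and 45.3 ± 2.51 CPM in control libraries (log2 change 0.28 ± 0.09, adjusted p = 0.0629) and did not pass. At an unadjusted p under 0.05, 2 of the 12 were higher and 3 lower, beside 12.1% and 12.5% of all genes. DESeq2 called 2 higher and 1 lower. The 3 lower, named after their values were seen, were Rab10 (log2 change -0.17, edgeR adjusted p = 0.0673), Arrdc3 (-0.32, adjusted p = 0.1) and Vamp2 (-0.17, adjusted p = 0.151). For Rab10 the groups did not overlap.

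The genes most like Slc2a1 over the 8 libraries, by root mean square distance between mean-centred log2 CPM values among 9786 other genes with at least 10 CPM, were Ruvbl2, Usf1, Aph1a, Psmd9 and Pim3. Their distances were 0.053 to 0.071, against 0.099 for Slc2a3 and a median of 0.236. The genes most like Slc2a3 were Slc39a3, Kdm4b, Adcy3, Pdrg1 and Tubgcp6, at 0.036 to 0.044, against a median of 0.205. These genes were picked for the smallest distances, so a larger distance between Slc2a1 and Slc2a3 is no result about the 2 members. Their distance of 0.099 was below both medians. The diet difference enters the distance and both members were called higher, so this is no separate result about them.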

How the data were processed

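The authors deposited raw counts per gene symbol and FPKM values for 8 libraries. Per the labels' protocols, each library was made from 1.3 ug of RNA with a SMARTer kit. Builds GRCm38 and mm10 come from the submitters' processing notes. Which aligner, counting program, strand setting and annotation the authors used is not given in the sources used here. Deposited FPKM equalled the count divided by a fixed gene length and the column total (largest relative spread of the implied length 1.79e-07 over 14009 genes that had 10 counts or more), so it adds only lengths.

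Ketogenic was compared with control by edgeR 4.0.16 (TMM factors, its filter on low counts, quasi-likelihood F test, diet alone in the design). The filter left out 3088 of 17983 genes, and p-values were adjusted over the 14895 others. The SE is the size of the log2 change divided by the square root of F, and 95% intervals use the t distribution with the total degrees of freedom of the fit. Ratios are differences of log2 CPM (edgeR, prior count 2), with exact permutation tests over 70 assignments. No other column of samples was present. Locations are GENCODE M21 gene bounds on GRCm38, and promoters are RefSeq on GRCm38.p6. Values are per gene and not per exon. On simulated counts for this comparison (14895 genes) edgeR called 71 of 100 genes set to a 1.5-fold change and 89 of 100 set to 2-fold, with 7 calls among unchanged genes and 2 when no gene was changed. Smaller changes, such as the 1.29-fold of Slc2a1 and 1.24-fold of Slc2a3, were not simulated.

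The members, the lists and the tests were chosen with earlier results of these data known. Named genes were all members, the called genes of the other lists (or the 2 with the smallest p), and the 5 genes nearest to Slc2a1 and to Slc2a3 among those with at least 10 CPM, leaving out predicted genes. A gene that this rule names is not reported here. Alternatives were other scaling factors, filters, limma 3.58.1 (voom, and log2 FPKM with a pseudocount of 1 or 0.1), DESeq2 1.42.0, a block on the replicate number, removal of a loess trend on GC content and length (span 0.3, known for 98.1% of tested genes), and libraries left out. SciPy 1.17.1 ran the permutation tests.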

Additional observations from a re-analysis of the deposited data

Results flagged for a closer look

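A library far from the rest of its group was looked for in 52 groups of 4 values, by diet: the 10 members, the 7 log2 ratios and 9 other genes given with CPM values (Slc45a4, Slc45a1, Slc5a3, Hk2, Tbc1d1, Txnip, Aqp4, Mfsd2a and Cldn5). No member or ratio had one. The endothelial gene Mfsd2a had 22.9 CPM in ketogenic replicate 1, far below the 31.4 to 32.5 CPM of the other ketogenic libraries. The myo-inositol carrier gene Slc5a3 had 50.6 CPM in control replicate 4, far above the 30.5 to 32.5 CPM of the other control libraries. Chance alone would give such a value in about 1 in 20 groups.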

How the results depend on the processing

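The number of members higher, 2 with all libraries, was 0 with limma on log2(FPKM + 1) or log2(FPKM + 0.1) without a filter and 0 without ketogenic replicates 3 and 4 together; it ran from 0 to 3 with each library left out. It stayed at 2 under the other 10 settings, and 0 members were lower under any of the 21. Other glucose genes higher, 2, numbered 4 with the DESeq2 Wald test and with the replicate block, 1 with the GC and length trend removed and with limma on log2(FPKM + 1) filtered at a mean FPKM of 0.5, and 0 with limma without a filter and without ketogenic replicates 3 and 4 together, and ran from 1 to 3 with each library left out. Other glucose genes lower, 0, numbered 1 with the DESeq2 Wald test, 2 with the replicate block and 1 without ketogenic replicates 3 and 4 together, and ran from 0 to 2 with each library left out. The cause of these shifts was not tested, except that settings that leave libraries out have fewer samples.

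All ratio differences that passed when adjusted over 5 ratios kept their sign under the alternatives run. With the median of the marker list they were 0.28 for Slc2a1 over endothelial markers (adjusted p = 0.0714), 0.67 over astrocyte markers (0.0714) and 0.32 for Slc2a3 over neuron markers (0.0952). Without ketogenic replicates 3 and 4 they were 0.28, 0.45 and 0.43, and with each library left out they ran from 0.28 to 0.36, from 0.46 to 0.61 and from 0.35 to 0.49. Neither design can pass the threshold. The smallest exact p is 0.133 without ketogenic replicates 3 and 4, and 0.0571 with 4 libraries against 3. The replicate block left the differences at 0.32, 0.53 and 0.40, with a smallest exact p of 0.125. The replicate numbers share no source in the labels, and same-numbered libraries deviated together with correlations of 0.0218 to 0.0759 over genes, so they were not taken as pairs. Over all genes 971 were called; the number was 64 and 88 with limma on FPKM without a filter, 360 with the GC and length trend removed, 1719 with DESeq2, and from 146 (without control replicate 1) to 1900 (without control replicate 4) with each library left out. With the replicate block 1528 were called, and the Slc2a1 change was 0.37 and the Slc2a3 change 0.32.

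The sign of 4 members with no call turned under some settings: Slc2a5 to -0.06 and Slc2a9 to -0.11 without ketogenic replicates 3 and 4, Slc2a9 to -0.14 without ketogenic replicate 4, Slc2a12 to 0.09 without ketogenic replicate 3, and Slc2a13 to at most 0.06. Depth limits the low members: Slc2a9 had 20 to 68 counts per library and Slc2a10 42 to 59.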
